A study of Rattus norvegicus with 8 samples.

Results

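The 53 genes examined here encode enzymes that add acetyl or methyl groups to histones or take them off, with their closest partners. They were chosen by gene symbol from the 32883 rows of the deposited table. The choice took the histone deacetylases (Hdac), the sirtuins (Sirt1 to Sirt7), the lysine acetyltransferases (Kat) with Ep300 and Crebbp, the Kmt2 and Kmt5 lysine methyltransferases, the core of Polycomb repressive complex 2 (PRC2; Ezh1, Ezh2, Eed and Suz12) and the lysine demethylases (Kdm). Kdm5c, Kdm5d and Kdm6a, which lie on the sex chromosomes, were left out. Kmt2d shares 1 row with Prkag1 in the table, so its level is not separate and it is not among the 53.

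RNA was sequenced from primary oligodendrocyte precursor cells (OPCs) of the cerebral cortex of Sprague Dawley rats aged 1 to 2 days, in 4 cultures from male and 4 from female animals. All cultures were grown alike: mixed glia in medium with 20% serum, then the cells that do not adhere in Neurobasal medium with 2% B27 and 10 ng/ml each of PDGF and FGF for 4 to 5 days, which keeps them dividing. The labels name no treatment and no altered gene, and sex is the only difference between the groups that they give. The labels do not state whether the 4 cultures of a sex derive from different animals or litters, and p-values therefore cover the spread among these libraries alone, which may be technical.

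Acetylation of histone tails loosens chromatin and recruits reader proteins, and deacetylases and sirtuins reverse it. Methylation of histone lysines can mark active or silent genes depending on the lysine. Most Kmt2 enzymes place a mark of active promoters and enhancers, while PRC2 places a mark of silenced developmental genes. Demethylases of the LSD family use FAD, and those of the JmjC family use oxygen, iron and 2-oxoglutarate. In the oligodendrocyte lineage, deacetylases Hdac1 and Hdac2 are known to be needed for differentiation, Ezh2 is high in precursors, and Sirt2 is known as a protein of the maturing oligodendrocyte and its myelin.

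Values are FPKM, the number of sequenced fragments per unit of transcript length and of library size, which allows levels of different genes to be compared. FPKM summed to between 648383 and 773919 per library. Absolute depth is unknown. Steps between low values gave a depth relative to male 1 of 0.303 to 1, lowest in female 1, and a mean of 0.719 ± 0.212 in male and 0.546 ± 0.306 in female libraries (SD, n = 4 each). Shallower libraries measure low genes less precisely. OPC markers were abundant in every library, led by Olig1 at a mean of 958 FPKM, and none of the 17 found was at 0 in all libraries. Markers of other cells were also present: summed over 16 microglia markers, levels were 67.6 to 86.6 FPKM in male and 201 to 249.8 FPKM in female cultures. In such bulk samples, fewer cells of a type and less RNA per cell cannot be told apart. Male 1 and female 3, the deepest library of each sex (relative depth 1 and 0.981), in part shared their deviations from the mean of their sex. These deviations correlated at 0.242 over 11263 genes, the highest value for any male and female library. This is a description, since genes are not independent replicates.

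Levels of the enzyme genes above 0 spanned 2 orders of magnitude within the same cultures. The highest by mean FPKM over the 8 libraries was Sirt2 (116 FPKM), an NAD-dependent deacetylase of tubulin and histones, followed by the class I deacetylases Hdac2 (109 FPKM) and Hdac1 (73.9 FPKM). The acetyltransferase Kat7 (70.1 FPKM), which acetylates histones at replication origins and promoters, Hdac3 (57.2 FPKM), the catalytic subunit of corepressor complexes, and the demethylase Kdm1a, or LSD1 (46.997 FPKM), came next. At the low end Hdac6 (0.681 FPKM), a cytoplasmic tubulin deacetylase, and the mitochondrial Sirt4 (0.662 FPKM) had means under 1 FPKM, and Kdm4d was listed at 0 in all 8 libraries. These 3 genes were below the minimum of 1 FPKM for testing, which left 50. In 2 of the paralog pairs 1 member was far more abundant. Ezh2 was 20.1 to 34.8 times the level of Ezh1 in male libraries and 11.03 to 35.8 times in female ones. Kat2a was 11.98 to 18.8 times the level of Kat2b in male and 10.1 to 14.6 times in female libraries. Hdac2 and Hdac1 were closer to one another, at ratios of 1.303 to 1.61 in male and 1.42 to 1.55 in female libraries. The spread between cultures of 1 sex was like that of other genes: the median within-group SD of log2(FPKM + 1) was 0.184 over the 50 genes and 0.183 over all 11263 tested. It was widest for Kmt2c (0.519), Kdm4c (0.473) and Kdm7a (0.424) and narrowest for Kat7 (0.0512) and Hdac2 (0.0516).

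**Figure D1:**
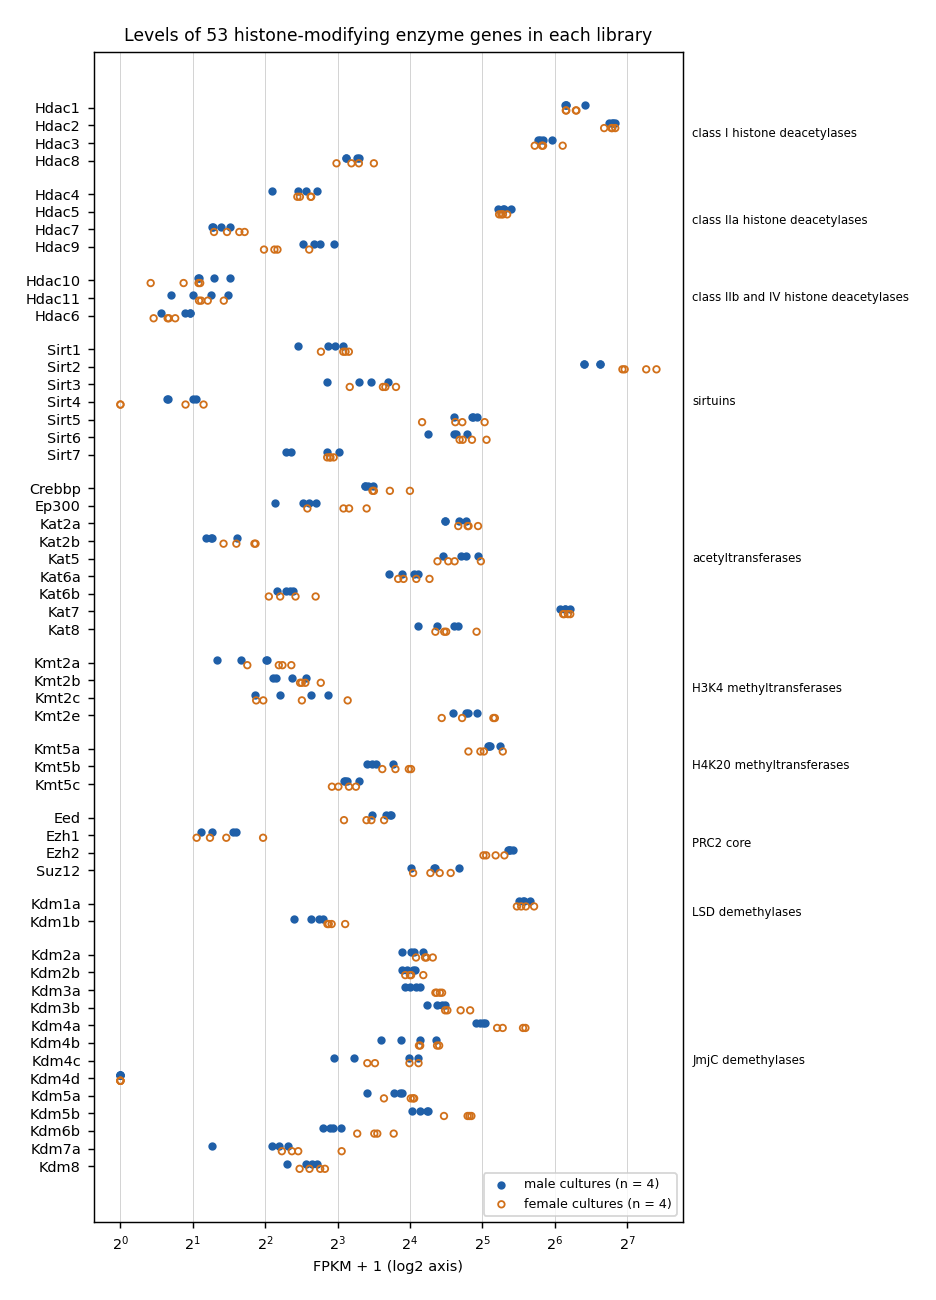
FPKM + 1 (log2 axis) of each of the 53 genes in the 4 male (filled) and 4 female (open) libraries, grouped by the role of the enzyme. Sirt2, Hdac2, Hdac1 and Kat7 lie farthest right, Kdm4d lies at 0 FPKM in every library, and for most genes male and female points overlap.

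The comparison of male with female cultures asked whether these enzymes differ by sex in dividing OPCs. Of the 50 tested genes 5 were called (limma-trend, Benjamini-Hochberg adjusted p under 0.05 over all tested genes), all higher in female cultures: the sirtuin gene Sirt2 and the JmjC demethylase genes Kdm5b, Kdm6b, Kdm4a and Kdm3a. That is 10.0% of the 50, where 2.89% of all 11263 tested genes were called higher in female cultures. None was called higher in male cultures, where 3.14% of all genes were, although 2 genes that lay higher in male cultures, Hdac9 and Ezh2, were among the 12 of the 50 with an unadjusted p under 0.05. The share of all tested genes at that unadjusted p was not taken. In all, 38 of the 50 genes had a negative difference (male minus female, in log2(FPKM + 1)), or 76.0%, against 50.7% of all tested genes, and the median difference was -0.11 against -0.00378 for all tested genes. For 7 of the 50 genes all 4 female values lay above all 4 male ones, as they did for 6.77% of all tested genes, and for 1 gene, Ezh2, all male values lay above all female ones, as they did for 7.26%.

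**Figure D2:**
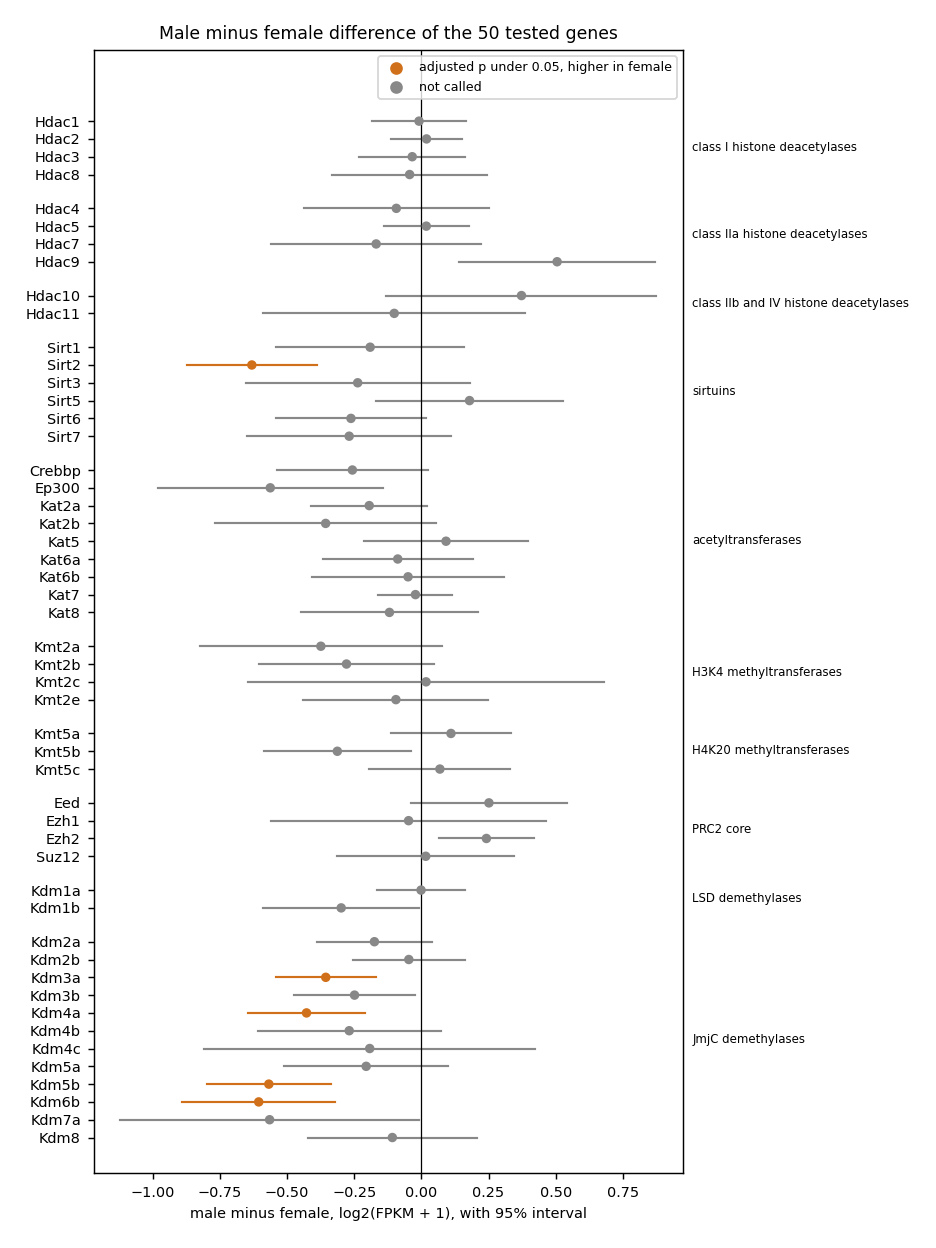
Difference between male and female cultures, in log2(FPKM + 1) with female subtracted from male, for the 50 tested genes by role; points are limma estimates and bars their 95% intervals, not adjusted for the number of genes. The 5 called genes, in orange, lie at -0.63 to -0.36, and all 12 JmjC demethylase genes of the 50 lie left of 0.

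Sirt2, the most abundant of the 50 genes, was higher in female cultures. It stood at 97.5, 84.05, 83.5 and 97.4 FPKM in male 1 to male 4, against 169, 122, 124 and 153 FPKM in female 1 to female 4. Every female library was higher than every male one, with female 2 and female 3 the closest to the male range. The mean was 90.6 ± 7.898 FPKM in male and 142 ± 22.9 FPKM in female cultures (SD, n = 4 each), so female cultures held 1.57 times the male level (log2 difference -0.63 ± 0.11, limma-trend adjusted p = 0.00826). The call was kept with each of the 8 libraries left out in turn (adjusted p up to 0.03301). The summed level of genes of differentiating oligodendrocytes, the cells Sirt2 is known from, was also higher in every female culture: over 20 such genes it was 757 to 899 FPKM in male and 1029.6 to 1217 FPKM in female cultures. Of the 17 tested, 5 were called higher in female cultures and 0 in male ones, against 2.89% and 3.14% of all tested genes. Their signs were mixed, with 7 positive and 10 negative differences, a median of -0.06 and 2 genes higher in male cultures at an unadjusted p under 0.05. Their part in the Sirt2 difference was not tested.

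Kdm5b, a demethylase that removes the methyl mark of active promoters, stood at 16.7, 15.4, 17.9 and 18.1 FPKM in male 1 to male 4, against 27.8, 27.3, 21.2 and 26.8 FPKM in female 1 to female 4. The groups did not overlap, and female 3 was low within its group. Means were 17.01 ± 1.25 FPKM in male and 25.8 ± 3.099 FPKM in female cultures (log2 difference -0.57 ± 0.11, limma-trend adjusted p = 0.0111), and the call was kept whichever library was left out (adjusted p up to 0.0417). Kdm6b, or JMJD3, which removes the silencing mark that PRC2 places, stood at 6.68, 5.95, 6.42 and 7.301 FPKM in male 1 to male 4, against 12.7, 10.4, 8.66 and 10.7 FPKM in female 1 to female 4. Again all female libraries were above all male ones, with female 3 the lowest of its group. The means were 6.59 ± 0.562 FPKM in male and 10.6 ± 1.66 FPKM in female cultures (log2 difference -0.61 ± 0.13, adjusted p = 0.0213). Leaving out male 2, male 3, female 1 or female 4 ended the Kdm6b call (adjusted p up to 0.0714), as did a covariate for relative depth (adjusted p = 0.0688).

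Kdm4a, which demethylates histone H3 in heterochromatin and in transcribed genes, stood at 31.9, 31.3, 29.2 and 30.3 FPKM in male 1 to male 4, against 46.3, 47.4, 35.9 and 37.9 FPKM in female 1 to female 4. Male values were close together and all lay below the female ones. The means were 30.7 ± 1.19 FPKM in male and 41.9 ± 5.81 FPKM in female cultures (log2 difference -0.43 ± 0.10, limma-trend adjusted p = 0.0292). The Kdm4a call ended when male 2, male 3, male 4, female 1 or female 2 was left out (adjusted p up to 0.0869), when low genes were not filtered (adjusted p = 0.0503) and with a covariate for relative depth (adjusted p = 0.0834). Kdm3a, a demethylase of a silencing mark that is known as a target of hypoxia signalling, stood at 14.3, 15.1, 15.9 and 16.5 FPKM in male 1 to male 4, against 19.4, 20.8, 20.3 and 19.7 FPKM in female 1 to female 4. It had the tightest values of the called genes in female cultures, none of which overlapped the male ones. Its means were 15.5 ± 0.973 FPKM in male and 20.1 ± 0.612 FPKM in female cultures (log2 difference -0.36 ± 0.08, adjusted p = 0.0327), but the Kdm3a call was lost whichever library was left out (adjusted p from 0.0556 to 0.0968) and with a covariate for relative depth (adjusted p = 0.0839).

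**Figure D3:**
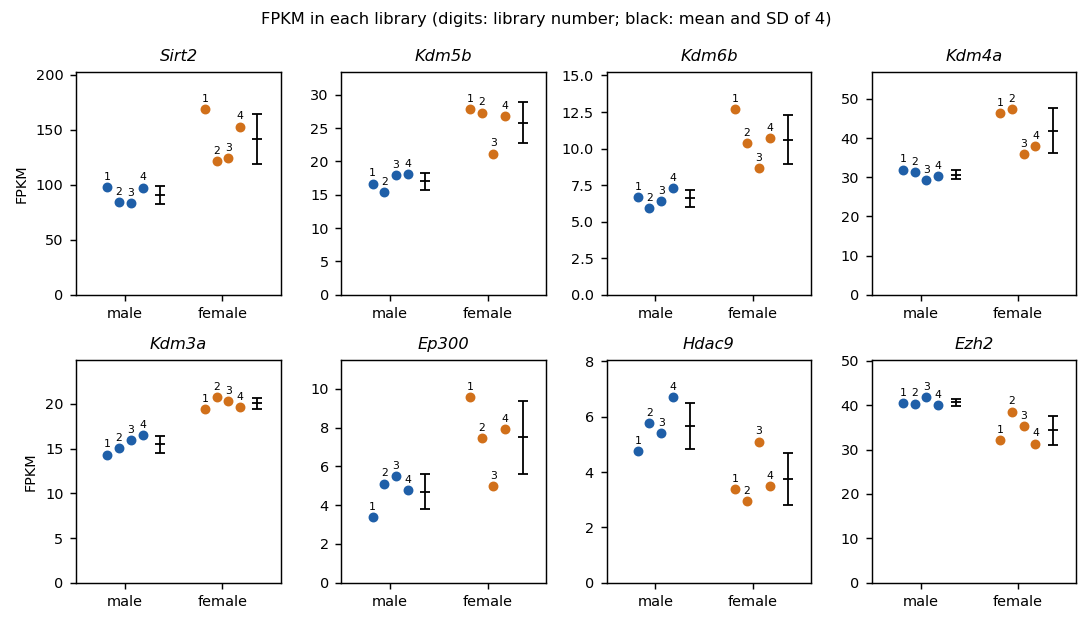
FPKM of 8 genes in each library (y axis from 0; male left, female right; digits give the library number), with the mean and SD of each group in black. In the upper row and for Kdm3a the female points lie above all male points, for Ezh2 the male points lie above all female points, and for Ep300 and Hdac9 female 3 falls within the male range.

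All 12 tested JmjC genes among the 53 had a negative difference, with a median of -0.26 and a range of -0.61 to -0.05, and 4 of them were called (33.3%). The shared direction did not extend to the 13 other JmjC genes tested, listed apart from the 53. Of these, 7 had a positive and 6 a negative difference (median 0.00959). By limma-trend 0 of the 13 were called, where 2.89% of all tested genes were called higher in female cultures. At an unadjusted p under 0.05, 0 of the 13 lay towards male and 2 towards female cultures, among them Jmjd1c, a relative of Kdm3a. Among the uncalled genes of the 12, Kdm3b, a relative of Kdm3a, stood at 17.9, 21.3, 20.7 and 19.8 FPKM in male 1 to male 4, against 27.5, 21.9, 21.4 and 25.01 FPKM in female 1 to female 4. Its groups also did not overlap, by a small gap (log2 difference -0.25 ± 0.10, limma-trend adjusted p = 0.189). Kdm7a, which removes silencing marks, stood at 1.399, 3.28, 3.96 and 3.55 FPKM in male 1 to male 4, against 7.32, 4.49, 3.69 and 4.17 FPKM in female 1 to female 4. Male 1 was the lowest and female 1 the highest, and the groups overlapped (log2 difference -0.56 ± 0.25, adjusted p = 0.228). The Kdm7a difference was -0.33 without male 1 and -0.31 with a depth covariate. The remaining 6 tested genes were Kdm2a and Kdm2b, which bind CpG islands, Kdm4b and Kdm4c, relatives of Kdm4a, Kdm5a, a relative of Kdm5b, and Kdm8, with differences from -0.27 for Kdm4b to -0.05 for Kdm2b and adjusted p from 0.3405 to 0.833. Kdm4c varied most among them, at 8.37, 14.8, 16.3 and 6.6996 FPKM in male 1 to male 4, against 16.4, 14.9, 10.5 and 9.64 FPKM in female 1 to female 4. Its 95% interval, -0.81 to 0.42, was the widest of the 12 and spanned 0. Summed over the JmjC genes of the 53, levels were 161, 175, 169 and 165 FPKM in male 1 to male 4, against 229.8, 222, 185 and 208 FPKM in female 1 to female 4. Every male sum was below every female one, and female 3 was the nearest to the male range.

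Microglia and OPC markers differed in the same direction as these demethylases. For the counts below, 2.89% of all tested genes were called higher in female and 3.14% in male cultures. Of 14 tested microglia markers 11 were called higher in female and 0 in male cultures, all 14 had a negative difference (median -1.51), and none of the 16 found in the table was at 0 in all libraries. OPC markers summed to 2579 to 2786 FPKM in male and 3169 to 3568 FPKM in female cultures. All 16 OPC markers tested had a negative difference (median -0.39), and 9 of them were called higher in female cultures. Of 17 tested neuron markers 6 were called higher in male cultures and 0 in female ones, with summed levels of 432 to 462 FPKM in male and 389.7 to 510.3 FPKM in female cultures. Of 9 astrocyte markers 0 were called by limma-trend, although 1 had an unadjusted p under 0.05 towards male cultures and 3 towards female ones, with sums of 227 to 249 FPKM in male and 226 to 257 FPKM in female cultures. Of 13 fibroblast, mural and endothelial markers found, 5 were at 0 in all libraries (Col1a2, Col3a1, Dcn, Cldn5 and Tek), and the 1 tested, Tagln, was called higher in male cultures. None of the 5 ependymal markers found was high enough to be tested, and Tmem212 and Pifo were at 0. The part of these cell types in the differences of the enzyme genes was not tested.

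**Figure D4:**
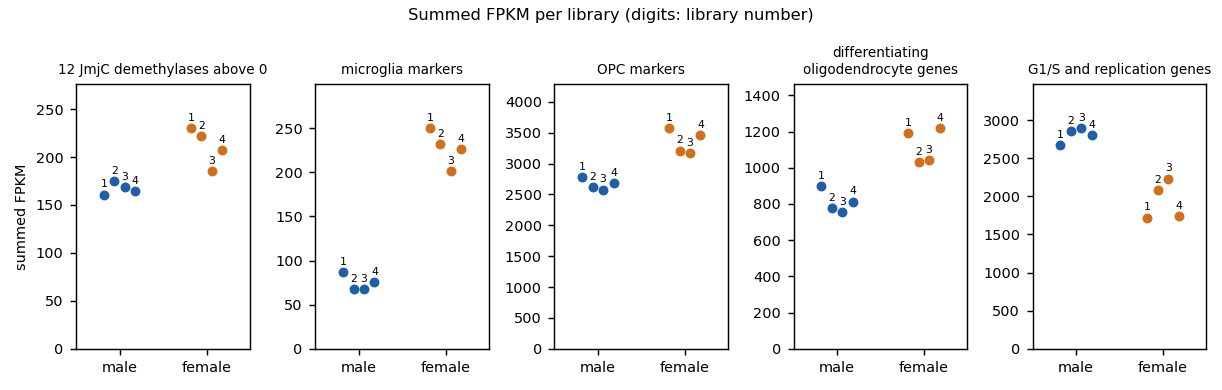
Summed FPKM per library (y axes from 0; male left, female right; digits give the library number) of the JmjC demethylase genes and of 4 marker lists. JmjC, microglia, OPC and differentiating oligodendrocyte sums are higher in all female libraries, and G1/S and replication genes are higher in all male ones.

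The 5 called genes sit on different autosomes, and the 200 bases before their transcription start (RefSeq, GRCr8; first start listed for each gene) are shown because these genes lay higher in female cultures together. Capitals mark 2 common promoter elements, the GC box (GGGCGG or its complement CCGCCC) and the CCAAT box (CCAAT or ATTGG).
Sirt2, chr1:93181272-93181471, plus strand: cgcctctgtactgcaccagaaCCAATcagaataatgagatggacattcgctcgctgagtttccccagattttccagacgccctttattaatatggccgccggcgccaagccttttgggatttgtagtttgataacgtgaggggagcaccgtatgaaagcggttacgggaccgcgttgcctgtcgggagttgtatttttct
Kdm5b, chr13:48554197-48554396, plus strand: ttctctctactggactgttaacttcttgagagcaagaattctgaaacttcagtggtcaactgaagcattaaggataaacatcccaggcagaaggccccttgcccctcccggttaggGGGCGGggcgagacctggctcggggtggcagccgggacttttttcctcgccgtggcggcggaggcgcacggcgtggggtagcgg
Kdm6b, chr10:54641015-54641214, minus strand: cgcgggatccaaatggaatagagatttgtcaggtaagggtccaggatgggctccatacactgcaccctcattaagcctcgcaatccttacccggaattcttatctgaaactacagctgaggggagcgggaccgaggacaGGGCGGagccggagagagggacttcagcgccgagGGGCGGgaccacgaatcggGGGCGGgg
Kdm4a, chr5:137004913-137005112, minus strand: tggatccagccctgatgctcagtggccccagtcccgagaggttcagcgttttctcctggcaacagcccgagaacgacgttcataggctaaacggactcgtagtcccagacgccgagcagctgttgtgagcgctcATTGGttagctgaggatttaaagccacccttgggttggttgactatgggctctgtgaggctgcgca
Kdm3a, chr4:105233371-105233570, minus strand: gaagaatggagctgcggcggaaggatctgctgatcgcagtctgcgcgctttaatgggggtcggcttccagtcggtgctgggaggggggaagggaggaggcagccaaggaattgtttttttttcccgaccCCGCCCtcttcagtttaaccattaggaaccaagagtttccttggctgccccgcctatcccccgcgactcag
Their makeup differed. Kdm6b, Kdm5b and Kdm3a hold GC boxes in this stretch (3, 1 and 1) and no CCAAT box, while Sirt2 and Kdm4a hold 1 CCAAT box each and no GC box. Promoters were found for 46 of the 53 genes. Over the 250 bases before the start, read on both strands, 29 of these 46 (63.0%) hold a GC box against 32.4% of 27457 listed promoters, and 22 (47.8%) hold a CCAAT box against 34.3%. The letters TTTNNCGC, as in sites of E2F factors, occur in 5 of the 46 (10.9%) against 4.35% of all promoters, and the E-box CACGTG in 5 (10.9%) against 5.79%, and neither occurs in the 5 called genes. The 27457 promoters include those of genes that were not tested here, and shares over the tested genes alone were not taken. A match of letters is a description and not a binding site.

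Of the 9 acetyltransferase genes among the 53, which leave out Hat1, 0 were called by limma-trend and 1, Ep300, had an unadjusted p under 0.05. A total of 8 of the 9 had a negative difference (median -0.12). The 2 coactivators that acetylate histones at enhancers, Ep300 and Crebbp, both leaned towards female cultures. Ep300 stood at 3.402, 5.104, 5.51 and 4.77 FPKM in male 1 to male 4, against 9.57, 7.47, 4.99 and 7.94 FPKM in female 1 to female 4. Female 3 lay within the male range and the other female libraries above it. The difference was not called (log2 difference -0.56 ± 0.19, limma-trend adjusted p = 0.114), but it was called without female 3 (adjusted p = 0.0307) and without female 3 and male 1 together (adjusted p = 0.04095). A covariate for relative depth made the Ep300 difference smaller, at -0.35 (adjusted p = 0.287). Crebbp stood at 9.42, 10.2, 9.44 and 9.76 FPKM in male 1 to male 4, against 15.004, 10.3, 10.2 and 12.2 FPKM in female 1 to female 4. Female 1 was the highest and female 3 lay in the male range (log2 difference -0.26 ± 0.13, adjusted p = 0.281). Without female 1 the Crebbp difference was -0.15, and with a depth covariate -0.17. Kat2a, the main acetyltransferase subunit of the SAGA complex, stood at 26.5, 21.5, 21.4 and 24.7 FPKM in male 1 to male 4, against 29.7, 24.4, 27.1 and 26.8 FPKM in female 1 to female 4. The groups overlapped (log2 difference -0.19 ± 0.10, adjusted p = 0.287), as they did for its paralog Kat2b (log2 difference -0.36 ± 0.19, adjusted p = 0.308), which stood at 1.41, 1.28, 1.38 and 2.06 FPKM in male 1 to male 4, against 2.04, 1.69, 2.61 and 2.65 FPKM in female 1 to female 4. For Kat5, Kat6a, Kat6b, Kat7 and Kat8, enzymes of the MYST family, differences ran from -0.12 for Kat8 to 0.09 for Kat5. Kat7 was the most tightly measured of them, with a 95% interval of -0.16 to 0.12.

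The class I deacetylases, the main nuclear ones, had differences of -0.04 to 0.0191, with 0 of 4 called by limma-trend and 0 at an unadjusted p under 0.05. Hdac1 stood at 84.3, 70.2, 69.9 and 70.5 FPKM in male 1 to male 4, against 70.2, 70.6, 77.8 and 77.4 FPKM in female 1 to female 4. Male 1 was the highest of the 8, and the groups overlapped. Reads shared with the similarly named Hdac1l would make this level uncertain. Hdac2 and Hdac3 also overlapped. Hdac2 stood at 109.9, 111, 113 and 107 FPKM in male 1 to male 4, against 102, 109, 113 and 110.2 FPKM in female 1 to female 4, and Hdac3 at 61.3, 53.4, 55.98 and 54.8 FPKM in male 1 to male 4, against 51.9, 56.3, 68.1 and 55.6 FPKM in female 1 to female 4. The X-linked Hdac8, a cohesin deacetylase, stood at 8.69, 7.65, 7.68 and 8.802 FPKM in male 1 to male 4, against 8.81, 10.3, 6.92 and 8.14 FPKM in female 1 to female 4. The 95% intervals were -0.18 to 0.17 for Hdac1, -0.11 to 0.15 for Hdac2, -0.23 to 0.16 for Hdac3 and -0.33 to 0.24 for Hdac8, none of which reached the -0.36 of the smallest called difference. Adjusted p ran from 0.874 to 0.967. These values do not show that the levels are equal.

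Of the class IIa deacetylases, which shuttle between nucleus and cytoplasm, Hdac9 lay towards male cultures. It stood at 4.76, 5.77, 5.41 and 6.71 FPKM in male 1 to male 4, against 3.37, 2.96, 5.0998 and 3.501 FPKM in female 1 to female 4. Female 3 lay within the male range and the other 3 female libraries below it. It was not called (log2 difference 0.50 ± 0.17, limma-trend adjusted p = 0.106), but was called without female 3 (adjusted p = 0.0355) and without female 3 and male 1 (adjusted p = 0.0308). Hdac5, the most abundant of the class at a mean of 38.2 FPKM, had a 95% interval of -0.14 to 0.18, and Hdac4 and Hdac7 were not called (adjusted p = 0.791 and 0.644). Hdac11, the class IV enzyme, stood at 1.797, 0.619, 1.002 and 1.38 FPKM in male 1 to male 4, against 1.69, 1.17, 1.31 and 1.12 FPKM in female 1 to female 4. Its values overlapped widely (adjusted p = 0.848). Hdac10 averaged 1.38 FPKM in male and 0.857 FPKM in female cultures, and its groups overlapped in part (log2 difference 0.37 ± 0.23, limma-trend adjusted p = 0.394). The X-linked Hdac6, too low to be tested, was at 0.472, 0.854, 0.955 and 0.942 FPKM in male 1 to male 4, against 0.691, 0.572, 0.375 and 0.5901 FPKM in female 1 to female 4.

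Among the other sirtuins 0 were called by limma-trend and 0 had an unadjusted p under 0.05. Sirt6, a nuclear deacetylase of telomeres and glycolytic genes, stood at 26.7, 23.9, 23.4 and 17.97 FPKM in male 1 to male 4, against 25.5, 24.8, 32.3 and 27.996 FPKM in female 1 to female 4. Male 4 was the lowest and female 3 the highest (log2 difference -0.26 ± 0.13, limma-trend adjusted p = 0.264). It was -0.15 without male 4 and -0.39 with a depth covariate. Sirt1, the nuclear founding member of the family in mammals, stood at 4.47, 6.29, 6.79 and 7.44 FPKM in male 1 to male 4, against 7.64, 7.45, 5.83 and 7.92 FPKM in female 1 to female 4. Male 1 was the lowest and the groups overlapped (log2 difference -0.19 ± 0.16, adjusted p = 0.546). It was -0.06 without male 1 and -0.05 with a depth covariate. Sirt3 and Sirt5, both mitochondrial, and the nucleolar Sirt7 had adjusted p of 0.527, 0.572 and 0.4197. Sirt4 was listed at 0 in female 1 and female 4 and between 0.5695 and 1.22 FPKM in the other 6 libraries.

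For 3 of the 4 PRC2 core genes the difference was positive, but 0 were called by limma-trend and 1, Ezh2, had an unadjusted p under 0.05. Ezh2, its catalytic subunit in dividing cells, stood at 40.6, 40.3, 41.8 and 40.1 FPKM in male 1 to male 4, against 32.2, 38.5, 35.4 and 31.4 FPKM in female 1 to female 4. All male values lay above all female ones, by a small gap to female 2 (log2 difference 0.24 ± 0.08, limma-trend adjusted p = 0.1102). Eed, the subunit that reads the mark, stood at 12.4, 12.2, 10.2 and 11.7 FPKM in male 1 to male 4, against 7.51, 10.1, 11.5 and 9.56 FPKM in female 1 to female 4. The groups overlapped through female 3 and male 3 (log2 difference 0.25 ± 0.13, adjusted p = 0.308). The Eed difference was 0.15 without female 1 and 0.15 with a depth covariate. Suz12, the scaffold subunit, stood at 15.1, 19.2, 24.6 and 19.3 FPKM in male 1 to male 4, against 22.6, 18.5, 15.5 and 20.3 FPKM in female 1 to female 4, and its difference was 0.016 with a 95% interval of -0.31 to 0.34. Ezh1, the paralog of non-dividing cells, stood at 2.02, 1.16, 1.41 and 1.95 FPKM in male 1 to male 4, against 2.92, 1.08, 1.36 and 1.76 FPKM in female 1 to female 4, with an interval of -0.56 to 0.46. Genes of DNA replication and entry into S phase, markers of dividing cells, differed in the direction of Ezh2. Of 47 tested, 37 were called higher in male cultures and 0 in female ones, against 3.14% and 2.89% of all tested genes. These markers summed to 2677 to 2891 FPKM in male and 1721 to 2233 FPKM in female cultures. Their part in the Ezh2 difference was not tested.

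Of the 7 genes of the Kmt2 and Kmt5 families 0 were called by limma-trend, and 1, Kmt5b, had an unadjusted p under 0.05. Kmt2a, or MLL1, stood at 1.52, 3.05, 3.09 and 2.17 FPKM in male 1 to male 4, against 4.14, 3.72, 2.37 and 3.56 FPKM in female 1 to female 4. Male 1 was the lowest male and female 3 the lowest female library, and the groups overlapped (log2 difference -0.37 ± 0.20, limma-trend adjusted p = 0.333). The Kmt2a difference was -0.23 without male 1 and -0.19 with a depth covariate. Kmt2e, the most abundant of them at 27.7 FPKM, Kmt2b and Kmt2c had adjusted p of 0.787, 0.317 and 0.982. Kmt5a, which monomethylates histone H4 and is known for its part in mitosis, stood at 32.9, 33.1, 37.05 and 33.3 FPKM in male 1 to male 4, against 27.03, 30.4, 37.9 and 31.5 FPKM in female 1 to female 4. Its groups overlapped (log2 difference 0.11 ± 0.10, adjusted p = 0.594). With 1 library left out the Kmt5a difference ran from 0.04 (without female 1) to 0.20 (without female 3), and with a depth covariate it was 0.0069. Kmt5b, which adds further methyl groups to the same lysine, stood at 10.5, 9.58, 12.6 and 10.1 FPKM in male 1 to male 4, against 11.3, 15.2, 12.9 and 14.8 FPKM in female 1 to female 4. The highest male library, male 3, was above female 1 only (log2 difference -0.31 ± 0.12, adjusted p = 0.177). Kmt5c, with the same activity, had an adjusted p of 0.801.

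Of the 2 LSD demethylases 0 were called by limma-trend and 1, Kdm1b, had an unadjusted p under 0.05. Kdm1a, or LSD1, the demethylase of the CoREST complex, stood at 46.4, 49.8, 46.9 and 44.7 FPKM in male 1 to male 4, against 51.6, 47.6, 43.6 and 45.5 FPKM in female 1 to female 4. The values interleaved, and the 95% interval of the difference was -0.17 to 0.16. Its paralog Kdm1b stood at 5.68, 5.95, 5.19 and 4.297 FPKM in male 1 to male 4, against 6.56, 7.61, 6.36 and 6.26 FPKM in female 1 to female 4. All female values lay above all male ones, yet the difference was not called (log2 difference -0.30 ± 0.13, limma-trend adjusted p = 0.224).

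The partners and other enzymes of these pathways gave few calls. Over all tested genes 3.14% were called higher in male and 2.89% in female cultures, so short lists can hold 0 calls. Of 37 tested genes listed as partners of acetyltransferases, 2 were called higher in male cultures and 0 in female ones. The first was Hat1, itself an acetyltransferase outside the 53 genes, which acetylates newly made histone H4 before it enters chromatin (66.3 ± 6.43 FPKM in male and 44.8 ± 3.82 FPKM in female cultures, log2 difference 0.55 ± 0.09, limma-trend adjusted p = 0.00618). The other was Morf4l1, a subunit of the Kat5 complex (236 ± 5.13 FPKM in male and 192 ± 15.3 FPKM in female cultures, log2 difference 0.30 ± 0.07, limma-trend adjusted p = 0.0227). Tada1 and Trrap had differences of -0.33 ± 0.10 and -0.44 ± 0.14 and were not called. Of 13 partners of the Kmt2 complexes 1 was called, Pagr1, a subunit of complexes that hold Kmt2c or Kmt2d, as higher in male cultures (31.7 ± 1.05 FPKM in male and 22.4 ± 3.51 FPKM in female cultures, log2 difference 0.50 ± 0.11, limma-trend adjusted p = 0.02097), while Dpy30, Psip1 and Ash2l were not (adjusted p = 0.0919, 0.149 and 0.198). By limma-trend 0 calls were made among 30 partners of deacetylases, 7 of PRC2, 27 other histone methyltransferases, 13 other JmjC proteins and 22 readers of acetylated lysine. The share of all tested genes at an unadjusted p under 0.05 was not taken, so counts at that p have no base to be read against. Rbbp7 counts in both the deacetylase and the PRC2 list. At an unadjusted p under 0.05, the genes higher in male and in female cultures numbered 3 and 3 among deacetylase partners, 3 and 1 among PRC2 partners, 1 and 2 among other methyltransferases, 0 and 2 among other JmjC proteins and 1 and 4 among the readers. The nearest were the methyltransferase gene Prmt3 (30.2 ± 1.23 FPKM in male and 36.4 ± 0.905 FPKM in female cultures, log2 difference -0.26 ± 0.07, limma-trend adjusted p = 0.05095) and Rbbp7 (173 ± 7.81 FPKM in male and 148 ± 6.33 FPKM in female cultures, log2 difference 0.22 ± 0.06, limma-trend adjusted p = 0.0565), a histone chaperone shared by PRC2 and deacetylase complexes. Jmjd1c, a relative of Kdm3a, was not called (-0.44 ± 0.13, limma-trend adjusted p = 0.0797). The median differences of these lists were -0.017 for deacetylase partners, 0.00913 for acetyltransferase partners, 0.08 for Kmt2 partners, -0.012 for PRC2 partners, -0.07 for other methyltransferases, 0.00959 for other JmjC proteins and -0.12 for the readers.

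Libraries within a sex differed too. Over the 50 genes female 3 was the lowest of the 4 female libraries for 22 and the highest for 8, while female 1 was the highest for 22 and the lowest for 11. The median difference from the mean of the other 3 libraries was -0.13 in female 3 and 0.13 in female 1 on the log2(FPKM + 1) scale, and between -0.0145 and 0.0338 in the 4 male libraries. Female 3 is the deepest and female 1 the shallowest of the female libraries. Without male 1 and female 3 together, Sirt2, Kdm5b, Kdm6b and Kdm4a kept their call, Kdm3a lost it, and Ep300 and Hdac9 gained one.

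**Figure D5:**
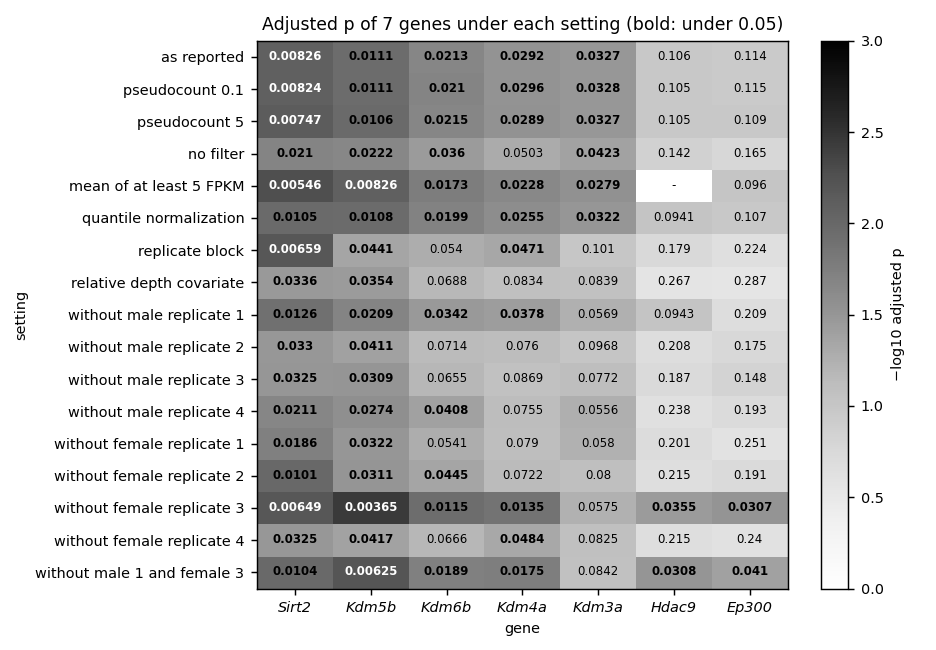
Adjusted p (limma-trend) of 7 genes (columns) under the reported setting and each alternative (rows), shaded by −log10 adjusted p, with values under 0.05 in bold and a dash where the gene was not tested. Sirt2 and Kdm5b stay under 0.05 in every row, Kdm3a exceeds it whenever a library is left out, and Hdac9 and Ep300 pass only in the 2 rows without female 3.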

How the data were processed

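The authors deposited 1 table of FPKM values, with 1 column per library, per the file headers. The submitters' processing notes name Trimmomatic and FastQC, and per the labels' protocols the library kit kept strand. Which aligner, quantifier, genome build, annotation and strand setting were used is not given in the sources used here. Because FPKM is relative to library size, abundant genes that increase push down the values of the rest. The table holds no counts, so no count test was run and no counting interval is given.

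Groups and library numbers came from the sample titles. Values were taken as log2(FPKM + 1), which understates changes of low genes. Genes had to average at least 1 FPKM over the 8 libraries, which 11263 of 32883 did. They were tested with limma 3.58.1 (R 4.3.3) with a trend and robust moderation, two-sided, at a Benjamini-Hochberg adjusted p under 0.05 taken over every tested gene. The ± of a difference is its standard error. The test was checked on simulated data with independent noise. Such data lack the deviations shared between libraries, so the check does not cover their effect. Relative depth was the commonest ratio of values under 1 FPKM between a library and male 1.

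The genes, lists and alternatives were chosen with earlier results of these data known. Values in every library are given for the called genes, the 12 smallest p among the uncalled ones and a fixed set of well-known members. Of the lists of partners and other enzymes, up to 4 genes of smallest p each could be named. Kdm4c, and Sirt4 as a range, were added after their values were seen. Alternatives were other pseudocounts and filters, quantile normalization, a replicate block, relative depth as a covariate, and libraries left out. Promoters were matched by symbol to RefSeq (GRCr8), at the first start listed.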

Additional observations from a re-analysis of the deposited data

Results flagged for a closer look

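In 5 of 104 groups of 4 libraries, 1 library lay far from the other 3 by the gap to its nearest neighbour over the whole range, where chance gives about 1 in 20. Hdac1 was high in male 1 (84.3 FPKM, others 69.9 to 70.5 FPKM). Kmt5c was high in male 1 (8.85 FPKM, others 7.54 to 7.76 FPKM). Kmt5a was high in male 3 (37.05 FPKM, others 32.9 to 33.3 FPKM). Kdm5b was low in female 3 (21.2 FPKM, others 26.8 to 27.8 FPKM), and so was its paralog Kdm5a (11.5 FPKM, others 15.1 to 15.7 FPKM). Without female 3 the Kdm5b difference was -0.66 (adjusted p = 0.00365, limma-trend), against -0.57 with it.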

How the results depend on the processing

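The count of all called genes was 680, and it was 397 with the replicate block, 367 with relative depth as a covariate and 298 to 803 with 1 library left out (lowest without male 3, highest without female 3). It stayed within 1.5 times of 680 under both pseudocounts (0.1 and 5), no filter, a higher filter (5 FPKM), quantile normalization and without male 1 and female 3. The count of enzyme genes called higher in female cultures was 5, and it was 3 with the replicate block, 2 with relative depth as a covariate and 2 to 5 with 1 library left out. Sirt2 and Kdm5b were called under all 16 alternatives. With the replicate block Sirt2, Kdm5b and Kdm4a kept their call and Kdm6b and Kdm3a lost it. The labels do not say that a number is shared between the sexes, so the numbers were not taken as pairs. Deviations of same-numbered libraries correlated at -0.0851 to 0.0767 (0 of 4 pairs over 0.1). With so few pairs, this does not settle whether a number is shared. The count called higher in male cultures was 0, and it was 1 (Hdac9) without female 3 and 1 without male 1 and female 3, with a range of 0 to 1 over libraries left out. Of 442 values of 28 genes under the alternatives, 391 kept direction and side of the threshold, 24 lost a call, 4 gained one and 23 changed sign. The sign changes were all of uncalled genes. With relative depth as a covariate they were Hdac2 at -0.0128, Hdac8 at 0.0447, Ezh1 at 0.0166 and Kdm1a at 0.0504, with quantile normalization Hdac2 at -0.0153, and without male 1 and female 3 Hdac3 at 0.00475. With 1 library left out, differences ranged from -0.0743 to 0.0157 for Hdac1, -0.0115 to 0.0396 for Hdac2, -0.0841 to 0.0447 for Hdac3, -0.13 to 0.0424 for Hdac8, -0.23 to 0.0367 for Hdac11, -0.17 to 0.13 for Ezh1, -0.0963 to 0.13 for Suz12 and -0.0363 to 0.0427 for Kdm1a. The cause of these changes was not tested. Absolute depth is unknown, which limits what can be said of the low genes Hdac6, Sirt4 and Kdm4d.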
